A study of Homo sapiens with 4 samples.

Results

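The MHC class II genes and their transcriptional master regulator were followed by RNA-Seq in AML cells 3 days after CRISPR-Cas9 editing of the mutant NPM1 allele. The 8 genes were HLA-DRA, HLA-DRB1, HLA-DPA1, HLA-DPB1, HLA-DMA, HLA-DMB, CD74 and CIITA. They were found by matching these symbols to Ensembl identifiers, with the version number removed, and all 8 had a row among the 58037 genes of the count table. OCI-AML3 is an established myeloid leukemia line that carries mutant NPM1 beside a wild-type copy, together with mutations of DNMT3A and NRAS, and every library shares this background. The 2 sgNeg libraries came from cells transfected with a control guide, called sgRNA Ctrl in the study. The 2 sgNPM1A libraries came from cells given a guide against the mutant allele. Both groups were grown with 20% FBS and harvested at 72 hours, and neither was described as a selected clone.

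Class II molecules are pairs of an alpha and a beta chain that present peptides from endosomes to CD4+ T cells. CD74, the invariant chain, binds new class II pairs in the endoplasmic reticulum, and HLA-DM (HLA-DMA with HLA-DMB) later exchanges the last piece of CD74 for an antigenic peptide. The chains and CD74 are switched on together by CIITA, which does not bind DNA itself but docks on the RFX, CREB and NF-Y proteins that sit on the SXY module (its S, X and Y boxes) of class II promoters. In the blood lineage class II marks dendritic cells, B cells, monocytes and many myeloid blasts. AML with mutant NPM1 is known for low surface HLA-DR.

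Total counts per library lay between 25069484 and 28276391, so that 3 counts, taken here as the floor of detection, were worth 0.108 to 0.118 CPM (the read count of a gene relative to the normalized library total). The lineage markers were those of a myeloid line. The summed level of 8 myeloid markers was 2066 to 2082 CPM with sgNeg and 5200 to 5921 CPM with sgNPM1A, and 6 of the 8 were called higher, among them LYZ (log2 fold change 3.63), MPO (1.77) and CSF3R (1.40). LYZ alone went from 270.6 and 215.1 CPM to 2643 and 3367 CPM, and the other 7 summed to 1796 to 1867 CPM with sgNeg and to 2554 to 2558 CPM with sgNPM1A. The 5 monocyte markers together summed to 221.4 to 224.8 CPM with sgNeg and to 265.9 to 304.3 CPM with sgNPM1A. Of these 5, 3 were called higher (ITGAM, CSF1R and FCGR1A). CD14 (log2 fold change 0.34) and VCAN (-0.11) were not called. VCAN was the most abundant of the 5, with means of 159.2 CPM with sgNeg and 147.2 CPM with sgNPM1A. Over all tested genes 10.5% were called higher. B cell markers summed to between 1.36 and 2.71 CPM with MS4A1 at 0 in every library. The T cell genes CD3D, CD3E and CD2 were at 0 as well. NKG7, on the same list of T and NK cell markers, was detected with 78 to 114 counts. It had a log2 fold change of -0.43 and was not called. The erythroid genes HBB and HBA1 had 3 counts or fewer. Of the dendritic cell markers, which summed to between 21.4 and 34.2 CPM, CD1C fell by 3.35 on the log2 scale and CLEC10A rose by 0.78, a call lost without sgNeg replicate 1 (0.43) and with DESeq2. The part of this myeloid marker shift in the results on class II genes was not tested. In bulk RNA, fewer cells with a transcript and less transcript per cell cannot be told apart. NPM1 itself, read from both its alleles together, changed from 1352 ± 47.1 to 1161 ± 40.7 CPM (SD, n = 2 each, log2 fold change -0.22, adjusted p = 0.0360 by edgeR's quasi-likelihood test), a difference under the fold change asked for here. A gene was called when its adjusted p over all tested genes was under 0.05 and its log2 fold change was at least 0.32 in size. Gene counts do not separate an edited allele from an intact one.

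The promoters are shown first because CIITA acts on class II genes through the SXY module. RefSeq promoter entries on GRCh38.p14 were found for 6 of the 8 genes, and HLA-DRA and CIITA had none. Each sequence below is the 250 bases before the transcription start, 5′ to 3′ on the strand of the gene. Capitals mark exact matches to the core of the X1 box, searched as ACNGATG on either strand, and to the CCAAT box bound by NF-Y. The last was searched as CCAAT on either strand, so that it also reads as ATTGG. The letters of these motifs do not overlap each other. HLA-DRB1 is shown as a classical chain that was not detected, HLA-DMA and HLA-DMB as the peptide exchanger, and CD74 as the abundant gene. HLA-DPA1, whose entries held neither motif, and HLA-DPB1, which held CCAAT without the X1 core, are not shown.
HLA-DRB1, chr6:32589849-32590098, minus strand: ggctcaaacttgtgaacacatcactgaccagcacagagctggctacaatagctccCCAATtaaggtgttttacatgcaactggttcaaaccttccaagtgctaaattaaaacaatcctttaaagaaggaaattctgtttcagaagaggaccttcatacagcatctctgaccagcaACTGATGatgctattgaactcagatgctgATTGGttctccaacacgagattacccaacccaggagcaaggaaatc
HLA-DMA, chr6:32953098-32953347, minus strand: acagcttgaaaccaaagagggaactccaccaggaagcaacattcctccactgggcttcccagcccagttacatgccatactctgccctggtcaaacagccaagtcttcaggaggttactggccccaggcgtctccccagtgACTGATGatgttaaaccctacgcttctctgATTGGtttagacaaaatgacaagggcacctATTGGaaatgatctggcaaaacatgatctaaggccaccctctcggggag
HLA-DMB, chr6:32941029-32941278, minus strand: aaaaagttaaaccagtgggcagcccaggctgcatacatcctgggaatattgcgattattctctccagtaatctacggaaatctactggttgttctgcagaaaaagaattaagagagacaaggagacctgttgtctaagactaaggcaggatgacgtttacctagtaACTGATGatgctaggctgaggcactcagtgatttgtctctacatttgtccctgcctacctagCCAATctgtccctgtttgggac
CD74, chr5:150412911-150413160, minus strand: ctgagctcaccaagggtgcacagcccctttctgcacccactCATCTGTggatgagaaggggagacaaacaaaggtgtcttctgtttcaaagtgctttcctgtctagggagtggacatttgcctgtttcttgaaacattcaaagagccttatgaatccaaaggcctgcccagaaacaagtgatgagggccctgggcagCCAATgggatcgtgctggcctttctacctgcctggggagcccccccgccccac
The X1 core stood 75 to 69 bases before the start in HLA-DRB1, 109 to 103 bases before it in HLA-DMA and 84 to 78 bases before it in HLA-DMB, each on the strand of the gene. A CCAAT box followed nearer to the start in each. In HLA-DRB1 it stood at 46 to 42 bases, on the opposite strand. HLA-DMA held it at 79 to 75 and again at 49 to 45 bases, both on the opposite strand. In HLA-DMB it stood at 22 to 18 bases, on the strand of the gene. The CD74 window held a CCAAT box 53 to 49 bases before the start. Its exact match to the X1 letters lay on the opposite strand, 209 to 203 bases before the start, farther out than in the 3 chains. Nearer to the CCAAT box the window reads agtgatg on the strand of the gene. That stretch differs from the searched letters by a base and was not marked. Which of these stretches acts as an X1 box was not tested. Over the 14 promoter entries of the class II genes and CD74 that were matched, 6 held the X1 core, 12 held CCAAT and 6 held both. Among all 35116 promoters of the same length 6.35% held the X1 core, 32.0% held CCAAT and 2.05% held both. The motifs were chosen after the counts had been seen, and a match describes these letters and not a bound site. Only exact matches were counted, so a stretch that differs by a letter was left out.

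Classical class II chains were at or near 0 in both groups. HLA-DRA, the alpha chain of HLA-DR, had 2 and 2 counts with sgNeg and 5 and 2 counts with sgNPM1A. HLA-DRB1, its main partner, had 0 counts in all 4 libraries. HLA-DPA1 had 2 and 0 counts with sgNeg and 0 and 1 with sgNPM1A, and its partner HLA-DPB1 had 0 throughout. Only 1 library of the 4 held more than 3 counts of any of these 4 genes. A count of 0 over the 4 libraries together allows up to 0.0280 CPM, counting error only. For HLA-DRA the pooled counts were 4 with sgNeg and 7 with sgNPM1A, a ratio of 1.61 after scaling with an exact 95% interval from 0.410 to 7.52. That interval covers counting error only and spans both a fall and a rise, so no difference was detectable at this depth. The 4 genes did not pass the filter on low counts. In a fit without the filter, over 29653 genes with any count, HLA-DRA and HLA-DPA1 were not called (edgeR adjusted p = 0.745 and 0.828), and HLA-DRB1 and HLA-DPB1 held no count to fit.

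Of the other chains all but HLA-DOB were likewise at or near 0. HLA-DRB5 had 1 count in a single sgNeg library. HLA-DQA1, HLA-DQA2, HLA-DQB1, HLA-DQB2 and HLA-DOA had 0 in all libraries, as did all 7 class II pseudogenes and antisense genes that were looked up. HLA-DRB3 and HLA-DRB4 had no row in the table.

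**Figure D1:**
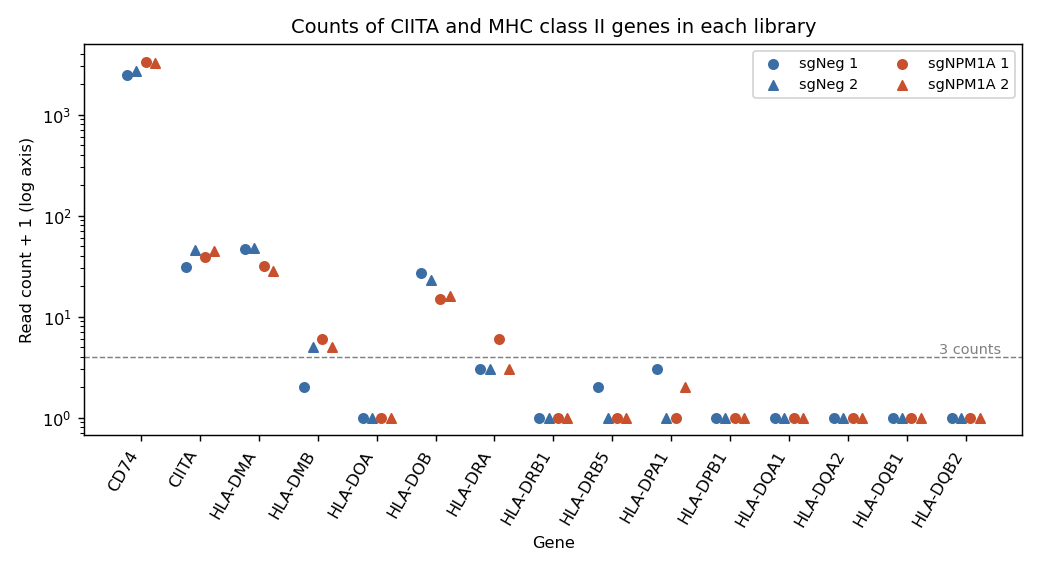
Read counts plus 1 on a log axis for CD74, CIITA and 13 class II chains, with 1 point per library (blue sgNeg, red sgNPM1A, circles replicate 1, triangles replicate 2) and the floor of 3 counts as a dashed line. CD74 sits between 2441 and 3327 counts, CIITA, HLA-DMA and HLA-DOB between 14 and 47, and every other chain at 5 counts or fewer.

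The same stretch of chromosome 6 held strongly expressed genes. Between the start of HLA-DRA and the end of HLA-DPB1 (chr6:32439887-33089696 on GRCh38, 649.8 kb) lie 18 protein-coding genes that had a row, 13 of class II and 5 others. The 5 others were PSMB8 and PSMB9, immunoproteasome subunits that cut proteins into peptides, TAP1 and TAP2, which carry those peptides into the endoplasmic reticulum for class I, and BRD2, a bromodomain protein bound to acetylated chromatin. They had at least 651 counts in every library and means of 27.5 to 280.2 CPM. No class II gene of the stretch exceeded 47 counts in any library, and 7 of the 13 were at 0 throughout. BRD2 is the next of these genes after HLA-DMA on the map and had 7413 to 7582 counts, against 27 to 47 for HLA-DMA. Per kilobase of transcript the level of BRD2 was 35.6 times that of HLA-DMA with sgNeg and 56.6 times with sgNPM1A.

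**Figure D2:**
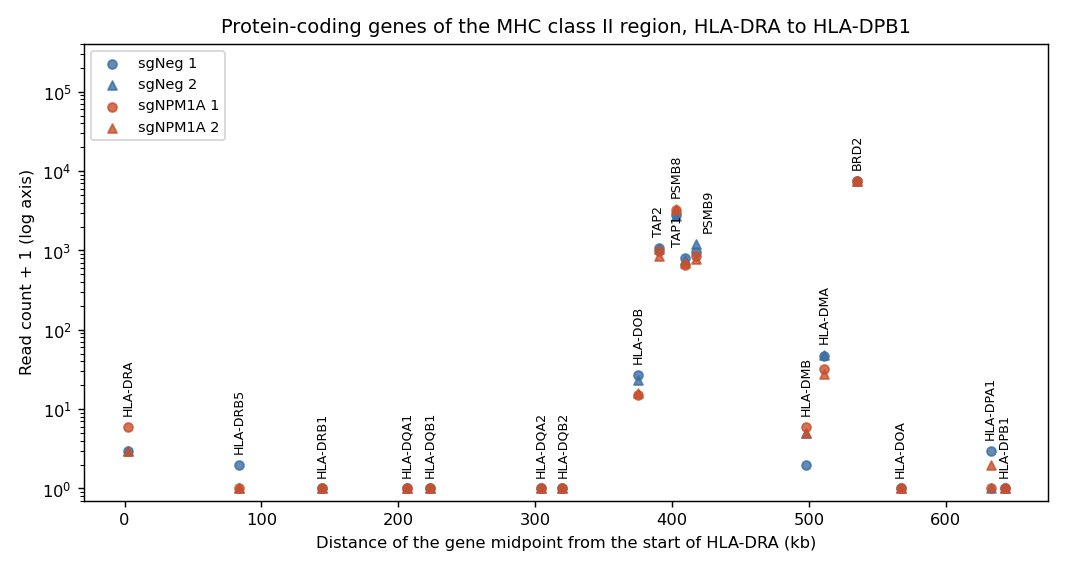
Read counts plus 1 on a log axis for the 18 protein-coding genes from HLA-DRA to HLA-DPB1, placed by the distance of the gene midpoint from the HLA-DRA start in kilobases (blue sgNeg, red sgNPM1A, circles replicate 1, triangles replicate 2). TAP2, PSMB8, TAP1, PSMB9 and BRD2 lie at 651 counts or more, while the class II genes on either side lie at 47 or fewer.

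Near-identical copies and overlapping exons can cost a gene its reads, and how such reads were counted is not given in the sources used here. HLA-DRA shared no exonic base with another annotated gene and none of its 50-base words with another transcript, in the GENCODE annotation used here, which is not the authors' release. HLA-DRB1 shared 3.74% of its words, with HLA-DPB1, HLA-DRB5 and HLA-DRB6. Whether alleles of the line that differ from the reference lowered the counts of HLA-DRB1 or HLA-DPB1 was not tested. CIITA shared 10.7% of its words and long exonic stretches with DEXI, whose row was at 0 in all 4 libraries, and with ENSG00000280153, which had 7 to 12 counts. These overlapping genes were named after their values were seen.

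CD74 was the member expressed at a high level. It had 2441 and 2696 counts with sgNeg and 3327 and 3214 with sgNPM1A, or 96.0 and 104.1 CPM against 119.4 and 115.8 CPM. Both sgNPM1A libraries lay above both sgNeg libraries, and the group means were 100.1 ± 5.70 and 117.6 ± 2.55 CPM (SD, n = 2 each). The log2 fold change was 0.23 (SE 0.07, 95% interval 0.08 to 0.39, 1.17-fold, adjusted p = 0.0321 by edgeR's quasi-likelihood test), which is under the log2 fold change of 0.32 required for a call. The adjusted p rose to 0.0550 with DESeq2, to 0.0673 with scaling by library size alone, and to as much as 0.284 when 1 library was left out. CD74 ranked 1983rd of 15718 tested genes by mean level, above 87.4% of them. The gene lies at chr5:150401639-150412910, apart from the class II chains.

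CIITA was detected at a low level in both groups. It had 30 and 45 counts with sgNeg and 38 and 44 with sgNPM1A, or 1.18 and 1.74 CPM against 1.36 and 1.58 CPM. The sgNPM1A libraries fell within the range of the sgNeg libraries, and the means were 1.46 ± 0.394 and 1.47 ± 0.157 CPM (SD, n = 2 each). The log2 fold change was 0.01 (SE 0.27, 95% interval -0.58 to 0.61, adjusted p = 0.981 by edgeR's quasi-likelihood test), and changes within that interval could not be told from none. The sign depended on single libraries, with -0.24 when sgNeg replicate 1 was left out and 0.32 when sgNeg replicate 2 was left out. Of the tested genes 21.4% had a lower mean level. CIITA lies at chr16:10866206-10943021.

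HLA-DMA was the only member called. It had 46 and 47 counts with sgNeg and 31 and 27 with sgNPM1A, or 1.81 and 1.81 CPM against 1.11 and 0.972 CPM. Both sgNPM1A libraries lay below both sgNeg libraries, with means of 1.81 ± 0.00361 and 1.04 ± 0.0988 CPM (SD, n = 2 each). The log2 fold change was -0.80 (SE 0.25, 95% interval -1.34 to -0.25, adjusted p = 0.0359 by edgeR's quasi-likelihood test). The call was lost with DESeq2 (DESeq2 adjusted p = 0.219) and whenever any single library was left out, with an adjusted p from 0.0877 to 0.240 and a log2 fold change from -0.89 to -0.70. HLA-DMB, the partner of HLA-DMA, had 1 and 4 counts with sgNeg and 5 and 4 with sgNPM1A. It did not pass the filter, and without the filter it was not called (edgeR adjusted p = 0.695). Its pooled counts of 5 and 9 gave a ratio of 1.66 with an exact 95% interval from 0.500 to 6.31, counting error only. HLA-DMA shared 4.04% of its 50-base words with a readthrough gene that spans both, and HLA-DMB shared 9.01% with that gene and a short neighbour. The readthrough gene was at 0 in every library. HLA-DMA also shared 55 exonic bases, 2.18% of its own, with BRD2. The part of BRD2 reads in the count of HLA-DMA was not tested.

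HLA-DOB, the beta chain of the HLA-DM inhibitor HLA-DO, had 26 and 22 counts with sgNeg and 14 and 15 with sgNPM1A. Its groups did not overlap either, at 0.936 ± 0.123 and 0.521 ± 0.0268 CPM (SD, n = 2 each). The log2 fold change was -0.84 (SE 0.34, 95% interval -1.58 to -0.09, adjusted p = 0.0931 by edgeR's quasi-likelihood test) and it was not called. HLA-DOA, with which it pairs, was at 0. Of the exonic bases of HLA-DOB 30.4% overlapped ENSG00000250264, which was at 0 in every library. HLA-DOB shared 26.7% of its 50-base words with that gene.

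Of the 3 members that passed the filter, 1 was thus called lower, beside 10.3% of all 15718 tested genes called lower and 10.5% called higher, or 20.8% in either direction. For 2 of these 3 the libraries of the groups did not overlap, beside 63.1% of all tested genes. CD74 was the 1 above, beside 31.4%, and HLA-DMA the 1 below, beside 31.7%. With 2 libraries in each group such a separation is common in this table.

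**Figure D3:**
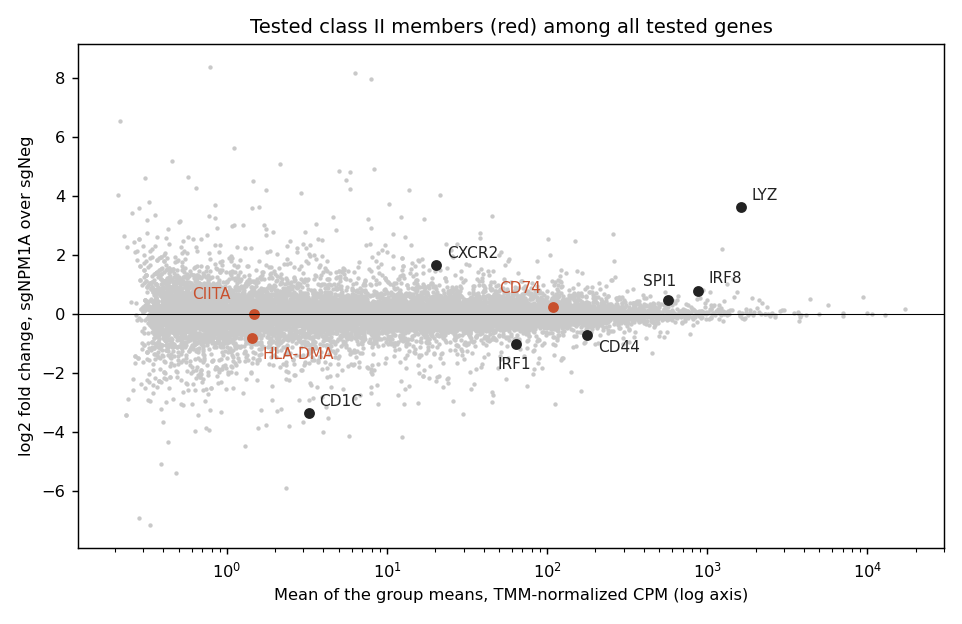
Log2 fold change (sgNPM1A over sgNeg) against mean level in TMM-normalized CPM on a log axis for the 15718 tested genes in grey, with CD74, CIITA and HLA-DMA in red and 7 genes of the text in black. CD74 lies at 108.8 CPM and 0.23, CIITA at 1.47 CPM and 0.01, and HLA-DMA at 1.43 CPM and -0.80, all nearer to 0 than LYZ or CD1C.

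Set against each other per kilobase of canonical transcript, the members spanned a wide range of levels. CD74 stood at 60.5 ± 3.45 CPM per kilobase with sgNeg and 71.1 ± 1.54 with sgNPM1A (SD, n = 2 each). HLA-DMA followed at 1.66 ± 0.00330 and 0.954 ± 0.0904 CPM per kilobase. HLA-DMB, CIITA and HLA-DRA came next, close together, with means over all 4 libraries of 0.0959, 0.0913 and 0.0825 CPM per kilobase, and these 3 neighbours did not differ beyond their spread over libraries. HLA-DPA1 had 0.0168 CPM per kilobase and HLA-DRB1 and HLA-DPB1 had none. Per kilobase the level of CD74 was 36.5 times that of HLA-DMA with sgNeg and 74.6 times with sgNPM1A. Over all 4 libraries it was 721 times that of CIITA and 798 times that of HLA-DRA, the last against 11 counts in all. These values depend on the length used. The canonical transcript was 16061 bases long for CIITA, against 1348 for HLA-DMB and 1235 for HLA-DRA. Pooled counts over all libraries were 157 for CIITA, 14 for HLA-DMB and 11 for HLA-DRA. With the union of all exons in place of the canonical transcript, HLA-DMA stood at 0.566, HLA-DRA at 0.0819, CIITA at 0.0650 and HLA-DMB at 0.0280 CPM per kilobase, so that the order of the last 3 turned. The level of CD74 was then 42.4 times that of HLA-DMA, 370 times that of CIITA and 294 times that of HLA-DRA.

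Transcripts of the proteins on which CIITA docks were present. All 8 genes of the RFX, CREB and NF-Y proteins were tested and none was called in either direction, beside 20.8% of all tested genes. Their median log2 fold change was 0.05 beside 0.00 over all tested genes. RFX5, the large DNA-binding subunit of the RFX complex, had 77.5 and 69.5 CPM with sgNeg and 60.4 and 63.2 CPM with sgNPM1A (log2 fold change -0.25, adjusted p = 0.0382 by edgeR's quasi-likelihood test), under the required fold. RFXANK, the ankyrin-repeat subunit that is lost in one form of bare lymphocyte syndrome, was at 60.9 ± 2.06 and 66.8 ± 2.11 CPM. RFXAP was at 6.00 ± 0.637 and 5.90 ± 0.829 CPM. Per kilobase the RFX subunits stood at 46.4 (RFXANK), 19.0 (RFX5) and 2.58 (RFXAP) CPM, all above HLA-DMA. ATF1 had a log2 fold change of 0.31 (edgeR adjusted p = 0.0455) and NFYB one of -0.26 (edgeR adjusted p = 0.0611), both under the required fold.

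Genes that control CIITA or carry the interferon-gamma signal to it moved in both directions. Of 12 listed, 11 were tested, 3 were called higher and 1 lower, beside 10.5% and 10.3% of all tested genes. Their median log2 fold change was 0.28. IRF8, a myeloid and dendritic cell transcription factor, had 659.9 and 613.7 CPM with sgNeg and 1090 and 1124 CPM with sgNPM1A (log2 fold change 0.80, SE 0.07, adjusted p = 1.08e-05 by edgeR's quasi-likelihood test). SPI1, which encodes the myeloid factor PU.1, rose from 473.4 ± 30.3 to 659.5 ± 22.8 CPM (log2 fold change 0.48, edgeR adjusted p = 0.000552). JAK2, a kinase of the interferon-gamma receptor, rose from 4.36 ± 1.46 to 7.68 ± 0.758 CPM (log2 fold change 0.82, adjusted p = 0.0115), a call lost without sgNeg replicate 2 (log2 fold change 0.51, edgeR adjusted p = 0.0625). IRF1, an interferon-induced factor that acts on the interferon-responsive promoter of CIITA, had 78.5 and 90.4 CPM with sgNeg and 45.2 and 39.2 CPM with sgNPM1A. It fell by 1.00 on the log2 scale (SE 0.10, adjusted p = 1.93e-05). USF1, the most abundant gene of the list that was not called, had a log2 fold change of 0.06. IRF4 had 1 count in each of 2 libraries. SPI1 is also on the list of myeloid markers.

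The 10 coactivators and histone enzymes that work with CIITA were all tested and none was called, beside 20.8% of all tested genes. Their median log2 fold change was -0.03. The most abundant, the chromatin remodeller SMARCA4, had a log2 fold change of -0.15 (edgeR adjusted p = 0.110). CREBBP, an acetyltransferase, had one of -0.28 (edgeR adjusted p = 0.0213), under the required fold.

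Among 17 genes of the endosomal steps that cut CD74 and antigen or move class II, 15 were tested. Calls were 3 higher and 3 lower, beside 10.5% and 10.3% of all tested genes, and the median log2 fold change was -0.07. CTSS, the cathepsin that makes the last cut of CD74 in professional presenting cells, fell from 58.1 ± 1.46 to 45.3 ± 0.378 CPM (log2 fold change -0.36, adjusted p = 0.00472 by edgeR's quasi-likelihood test). CTSL, another lysosomal cysteine protease, fell by 0.41 on the log2 scale (edgeR adjusted p = 0.00334) and CTSB fell by 0.46 (edgeR adjusted p = 0.000277). CTSS was named after its values were seen, and its call was lost without either sgNPM1A library (edgeR adjusted p = 0.0689 and 0.0566). The call on CTSL was lost without sgNPM1A replicate 2 (edgeR adjusted p = 0.0624).

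The aspartic protease CTSD rose by 0.38 on the log2 scale, the cathepsin CTSH by 0.46 and the adaptor subunit AP1S2 by 0.54 (edgeR adjusted p = 0.00373, 0.00226 and 0.000648). CTSD fell short of the required fold without sgNeg replicate 1 (log2 fold change 0.28). The lysosomal membrane protein LAMP1, the most abundant of the uncalled genes, had a log2 fold change of -0.07. The protease LGMN was nearly absent, with 1 count in 1 library. The thiol reductase IFI30, which is inducible by interferon-gamma, had 3 and 1 counts with sgNeg and 7 and 5 with sgNPM1A. The pooled ratio was 2.77 with an exact 95% interval from 0.839 to 11.8, counting error only. Of the exonic bases of IFI30 42.5% overlapped ENSG00000268173, which was at 0 in every library.

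**Figure D4:**
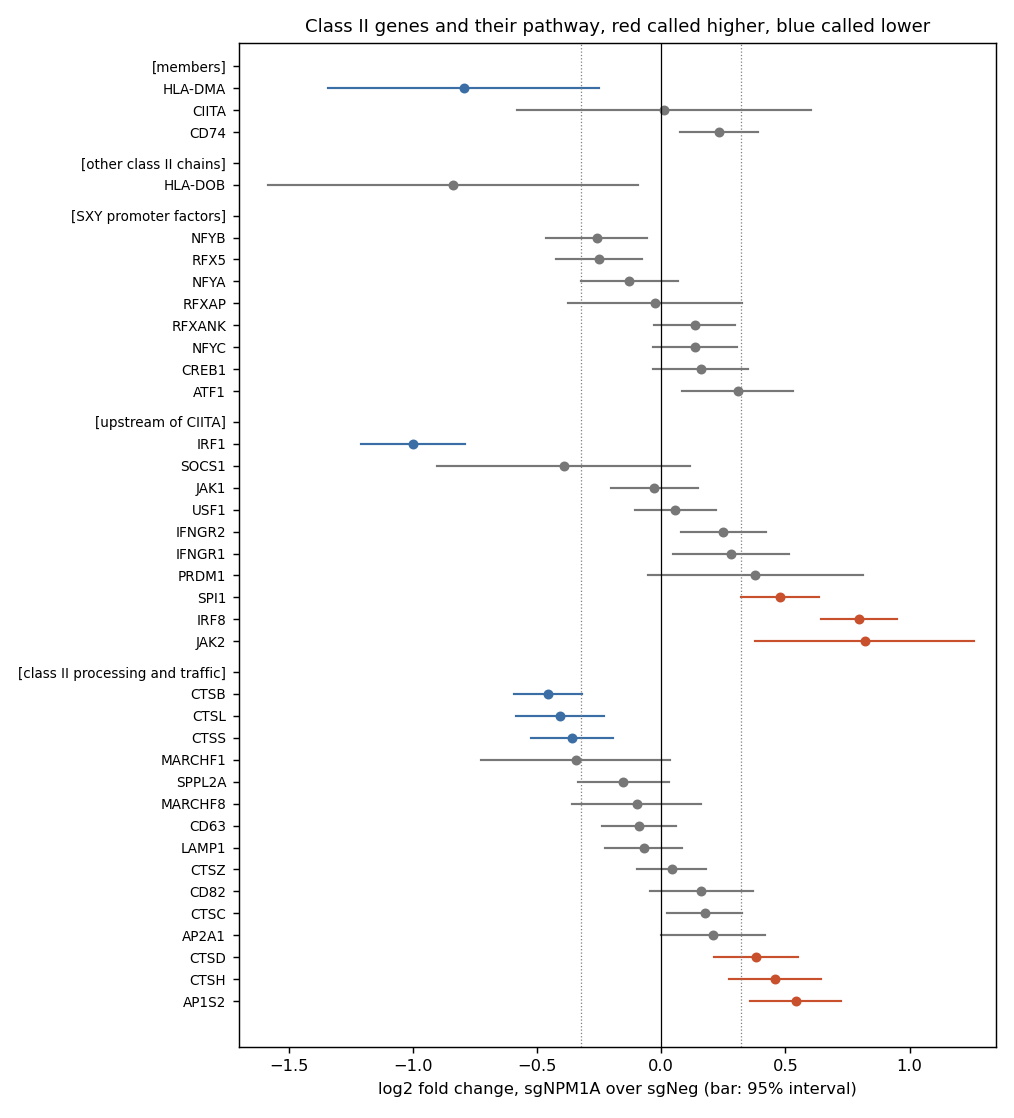
Log2 fold changes (sgNPM1A over sgNeg) with 95% intervals from edgeR for the 3 tested members, HLA-DOB and genes of 3 pathway lists, with called genes in red (higher) or blue (lower) and dotted lines at the fold required for a call. No gene of the SXY list is called, IRF1 and IRF8 lie on opposite sides of 0, and the processing enzymes lie on both sides.

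CD74 also serves at the cell surface as the receptor of the cytokine MIF, together with CD44, CXCR2 and CXCR4. Of the 5 genes of this group, all tested, 1 was called higher and 1 lower, beside 10.5% and 10.3% of all tested genes. CXCR2 had 9.91 and 9.46 CPM with sgNeg and 29.6 and 31.6 CPM with sgNPM1A (log2 fold change 1.66, adjusted p = 6.59e-07 by edgeR's quasi-likelihood test). CD44 had 219.6 and 219.5 CPM with sgNeg and 135.0 and 132.6 CPM with sgNPM1A, and it fell by 0.71 on the log2 scale (edgeR adjusted p = 1.13e-05). CXCR4 had a log2 fold change of 0.31 (edgeR adjusted p = 0.00729), just under the required fold. MIF had 11 to 16 counts, and 94.1% of its exonic bases overlap the antisense gene MIF-AS1, so that its level is uncertain in these counts.

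Costimulatory and coinhibitory genes act beside class II at the contact with T cells. Of 9 tested, 5 were called, beside 20.8% of all tested genes, and the median log2 fold change was 0.37. LGALS9 rose by 0.86 on the log2 scale, TNFSF9 by 0.47 and CD86 by 0.39 (edgeR adjusted p = 1.26e-05, 0.00144 and 0.0317 by edgeR's quasi-likelihood test). CD40 fell by 0.62 on the log2 scale and TNFSF4 fell by 1.61 (edgeR adjusted p = 0.00306 and 0.0180). The calls on CD86 and TNFSF4 did not survive DESeq2 (DESeq2 adjusted p = 0.110 and 0.124). CD86 lost its call also without sgNeg replicate 2 or either sgNPM1A library (edgeR adjusted p from 0.0888 to 0.203), and TNFSF4, with 5 to 21 counts, lost it without sgNeg replicate 1 or 2 or sgNPM1A replicate 2 (edgeR adjusted p from 0.0679 to 0.193). CD83 was the most abundant uncalled gene, with a log2 fold change of -0.27 (edgeR adjusted p = 0.136). CD80 had 3 counts in 1 library and CD274 1 count in each sgNPM1A library.

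Class I genes gave a different picture of levels in the same libraries. HLA-B, a class I heavy chain, had 531.3 and 548.9 CPM with sgNeg and 736.3 and 756.1 CPM with sgNPM1A (log2 fold change 0.47, adjusted p = 0.000354 by edgeR's quasi-likelihood test). NLRC5, the class I counterpart of CIITA, rose from 81.4 ± 6.89 to 115.0 ± 1.00 CPM (log2 fold change 0.50, adjusted p = 0.000626). HLA-C rose by 0.39 on the log2 scale and B2M by 0.38 (edgeR adjusted p = 0.00125 and 0.00238), though B2M was at 0.32, just under the required fold, without sgNeg replicate 1. PSMB9 fell by 0.54 on the log2 scale and TAP1 by 0.34 (edgeR adjusted p = 0.00316 and 0.0183). The call on TAP1, named after its values were seen, was lost without sgNeg replicate 1 or either sgNPM1A library (edgeR adjusted p from 0.0569 to 0.212). In all, 4 of the 15 tested class I genes and neighbours were called higher and 2 lower, beside 10.5% and 10.3% of all tested genes. Their median log2 fold change was 0.00. HLA-E, the most abundant uncalled gene of the list, had a log2 fold change of -0.04. BRD2 had one of -0.13 (edgeR adjusted p = 0.163). Over the 96 genes of all these pathway lists, 74 were tested, 14 were called higher, 9 lower and 51 were not called. The share called over all tested genes was 20.8%.

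The genes whose pattern over the 4 libraries lay closest to that of CD74, by the root mean square difference of centred log2 CPM among the 10180 tested genes whose mean reached 5 CPM, were ABCA2 (0.00211), MRPL15 (0.00454) and PLXNA3 (0.00519). For CIITA they were ENSG00000263956 (0.0408), TTC28-AS1 (0.0584) and KRT10-AS1 (0.0598). With 4 libraries such likeness is a description of these samples.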

How the data were processed

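RNA-Seq was made from total RNA of OCI-AML3 cells, with 2 libraries for each guide. The authors mapped the reads with STAR to hg38 and deposited 1 table of raw read counts, whole numbers by Ensembl identifier with no normalization. The counting program, annotation release and strand setting are not given in the sources used here. The study calls the libraries biological replicates. With no record of separate cultures in the labels, p-values measure only the spread between these libraries.

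Counts were analysed in R 4.3.3 with edgeR 4.0.16: TMM scaling, a filter on low counts (filterByExpr, minimum count 10) that kept 15718 of 58037 genes, and the robust quasi-likelihood test on group alone. Calls needed an adjusted p (Benjamini-Hochberg, over all tested genes) under 0.05 and a log2 fold change of 0.32 or more in size, which is the fold threshold of the study's methods. Every adjusted p in the text is from this test unless DESeq2 is named. CPM are counts relative to the TMM-scaled library total and errors are SDs. Library totals of 25069484 to 28276391 give 3 counts as 0.108 to 0.118 CPM. Intervals of pooled counts are exact binomial (Clopper-Pearson, 95%) and cover counting error only. Members and gene lists were chosen with earlier results of these data known. Named genes were all members, every class II chain with a count, up to 5 called genes per list by smallest adjusted p with the most abundant uncalled one, NPM1, and the 3 genes nearest in pattern to CD74 and to CIITA. Lengths, overlaps and 50-base words came from GENCODE on GRCh37, positions and promoters from RefSeq on GRCh38.p14. Some further uncalled list genes were named after their values were seen, and some list genes are counted but not reported here by name. Scripts were tested on simulated data. Alternatives were DESeq2 1.42.0, limma 3.58.1 (limma-trend), other scalings, filters and thresholds, a replicate block, and leaving out each library.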

Additional observations from a re-analysis of the deposited data

How the results depend on the processing

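The single member called lower, HLA-DMA, kept its direction in all 16 alternatives, with a log2 fold change from -0.89 to -0.70. The count of members called lower was 0 with DESeq2, 0 at a fold change of at least 2, and 0 in each fit that left out 1 library, where the lone library of a group was assumed to vary like the other group. Members called higher rose from 0 to 1 (CD74) with no fold threshold and stayed at 0 whenever 1 library was left out. CIITA changed sign with scaling by library size alone (-0.027, a move equal to that of the median of all tested genes), without sgNeg replicate 1 (-0.24, the lowest without 1 library, the highest being 0.32) and without sgNPM1A replicate 2 (-0.10), USF1 without sgNeg replicate 1 (-0.020, with up to 0.14 without 1 other library) and HLA-E without sgNeg replicate 2 (0.047, with down to -0.13 without 1 other library). None of these was called, and the cause of the sign changes without a library was not tested. Scaling by library size alone moved the median of all tested genes to -0.04 and its calls to 1433 higher and 1947 lower, from 1653 and 1619. At a fold change of at least 2 the pathway lists held 1 higher and 2 lower, and all genes 498 higher and 502 lower. Leaving out 1 library gave 13 to 19 pathway genes higher and 5 to 13 lower, the 5 without sgNPM1A replicate 2, and 1224 to 1574 genes higher and 1166 to 1571 lower in all. Same-numbered libraries tended to deviate in opposite directions (correlation of their deviations -0.13 over 15718 genes and -0.52 over 8856 genes above 10 CPM). The main fit used no pairing. The labels do not say what equal numbers mark, and whether any libraries share a culture or batch was not tested. With the replicate block 0 members were called higher and 1 lower, and 1637 genes higher and 1604 lower in all. The replicate block took the adjusted p of CD74 to 0.108 and that of CD86 to 0.0655, which ended the call on CD86. Crossing the numbers, an alternative chosen after seeing the data, gave 1955 genes higher and 1918 lower. Of the uncalled genes in the text, ATF1 (0.43) and CXCR4 (0.35) passed both thresholds without sgNeg replicate 1, RFX5 (-0.33) and CREBBP (-0.37) without sgNeg replicate 2, CXCR4 (0.36) also without sgNPM1A replicate 1, and NPM1 (-0.42) with limma-trend. HLA-DOB (-0.84) passed at an unadjusted p under 0.05, and its adjusted p lay between 0.0623 and 0.396 over the alternatives. The filter left out 5 of the 8 members. Without it 6 were fitted, 0 were called higher and 1 lower, the last HLA-DMA, and 16 pathway genes were called higher and 9 lower.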
